A study of Mus musculus with 24 samples.

Results

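The genes described here are Ripk3 and 6 genes that work with it in necroptosis, namely Ripk1, Mlkl, Zbp1, Casp8, Fadd and Cflar. They were chosen by symbol, with earlier results of these data known, and 12 of the 56488 probes used (7 of 45547 gene names) belong to them. The series holds 24 one-colour Agilent arrays, 1 sample on each, from 7 mouse lines. The 5 melanoma lines derive from B16F1 cells that carry green fluorescent protein (GFP): the parental line M (3 arrays), the dormant line D (4), recovered after long dormancy in mice vaccinated with irradiated tumour cells that secrete GM-CSF, and the brain-derived lines DB#1 (4), DB#2 (3) and DB#3 (3), a second generation. M0 (4 arrays) and J365 (3) are labelled myeloid, and their labels name no leukemia line of the study. No agent is named for any sample, the melanoma cells were grown in DMEM with serum, and each derived line was cultured before RNA was taken, so it stands for cells that had left the host. Nothing says whether replicates came from separate cultures, so p-values measure the spread between these samples, which may be technical.

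Necroptosis is a programmed form of cell death in which the membrane is breached. Receptors or sensors bring the kinase Ripk1 or the nucleic acid sensor Zbp1 together with the kinase Ripk3, which phosphorylates the pseudokinase Mlkl, and Mlkl then disrupts the plasma membrane. Casp8, a protease recruited through the adaptor Fadd and tuned by its catalytically inactive relative Cflar, cleaves the RIP kinases and holds the pathway back. Many cultured tumour lines lack Ripk3, and methylation of its promoter is a known reason.

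Each value below is a normalized log2 signal, the log2 of a probe's intensity minus the 75th percentile of its array, so differences between lines are log2 differences. Levels of different genes cannot be compared, since each rests on its own probe. A probe counted as read on an array where the scanner software marked it well above background. D replicate 3 read 89.9% of its probes and had a 75th percentile of intensity of 574, whereas the other 23 arrays read 43.7% to 53.9% and had 271 to 484. The arrays lay on 3 slides, each with every line. All 7 melanocyte markers were read on each of the 17 melanoma arrays, with means of 6.83 to 7.74, against -4.18 to -3.78 on the 7 myeloid arrays. The 8 blood cell markers had summed linear signals of 0.555 to 1.81 on the melanoma arrays, with D replicate 3 at the top, while the myeloid arrays had 106 to 156. These markers bore out the melanoma label and placed M0 and J365 among blood cells. A list of 6 macrophage markers separated the cell types less clearly. Its summed linear signals ran from 1.58 to 5.24 in the melanoma lines and from 4.64 to 7.35 in M0 and J365. Its mean log2 signals did not overlap once D replicate 3 was left out, at -4.77 to -3.85 against -3.14 to -2.45. The label myeloid was therefore not settled by these markers.

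Because Ripk3 varied most of the 7 between the lines and Mlkl, the protein it acts on, varied little, the stretch before the start of each gene is shown. The sequences are the 250 bases before the annotated start in RefSeq, assembly GRCm38.p6, written 5′ to 3′ on the strand of the gene, with CG dinucleotides, where mammalian promoters are methylated, in capitals. Of the 7 genes 6 had an entry, all but Zbp1. The Ripk3 sequence is on the minus strand at chr14:55788858-55789107 and that of Mlkl on the minus strand at chr8:111338206-111338455.
Ripk3: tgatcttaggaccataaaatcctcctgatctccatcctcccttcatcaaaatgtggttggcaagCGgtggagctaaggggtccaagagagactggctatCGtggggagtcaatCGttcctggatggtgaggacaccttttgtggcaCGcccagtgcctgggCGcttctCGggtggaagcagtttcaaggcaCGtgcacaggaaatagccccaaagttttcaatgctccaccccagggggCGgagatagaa
Mlkl: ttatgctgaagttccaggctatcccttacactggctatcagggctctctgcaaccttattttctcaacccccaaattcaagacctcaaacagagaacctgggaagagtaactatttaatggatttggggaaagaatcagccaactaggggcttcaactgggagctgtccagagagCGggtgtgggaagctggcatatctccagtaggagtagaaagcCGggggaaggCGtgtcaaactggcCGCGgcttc

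The Ripk3 stretch held 8 CG dinucleotides and that of Mlkl 5, against a median of 6 over all 32851 promoters of the table. More CG were found in 40.3% of all promoters than in that of Ripk3, and in 50.4% than in that of Mlkl. The 5 motifs below were searched on both strands. CACGTG, an E-box, lay 61 bases before the Ripk3 start and is found in 6.02% of all promoters, and GGGCGG, a GC box, lay 14 bases before it and is found in 32.7%, without overlap between them. CATGTG (12.3% of promoters), TTCNNNGAA (7.02%, the form bound by STAT factors) and a pair of GAAA with 2 bases between them (2.98%, the form bound by interferon regulatory factors) had no match before Ripk3, and none of the 5 motifs matched before Mlkl. The other members had 19 CG (Fadd), 19 and 32 (the 2 entries of Ripk1), 7 (Cflar) and 5 (Casp8). These matches describe the letters, and binding or methylation was not measured on the arrays.

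Ripk3, the kinase at the centre of the pathway, was not read on any array of the parental melanoma line M, where its normalized log2 signal was -6.33, -6.27 and -6.33 on replicates 1 to 3. It was read in every derived melanoma line. In D it was -3.67, -2.72, -2.38 and -2.75 on replicates 1 to 4, and replicate 1, the lowest, was not well above background. In DB#1 the values were -0.89, -1.21, -1.16 and -1.25, the highest of the series. DB#2 gave -3.54, -3.43 and -3.50. In DB#3 they were -1.58, -1.84 and -1.45 on replicates 3 to 5. No derived melanoma array overlapped the M arrays. Neither myeloid line had a read array, with -6.43 to -6.07 in M0 and -6.68 to -6.24 in J365, the level of M. These are bulk measurements, so more cells with Ripk3 RNA and more of it per cell cannot be told apart. In intensities before scaling, the M arrays stood at 4.15 to 5.19 and the DB#1 arrays at 149 to 224.

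**Figure D1:**
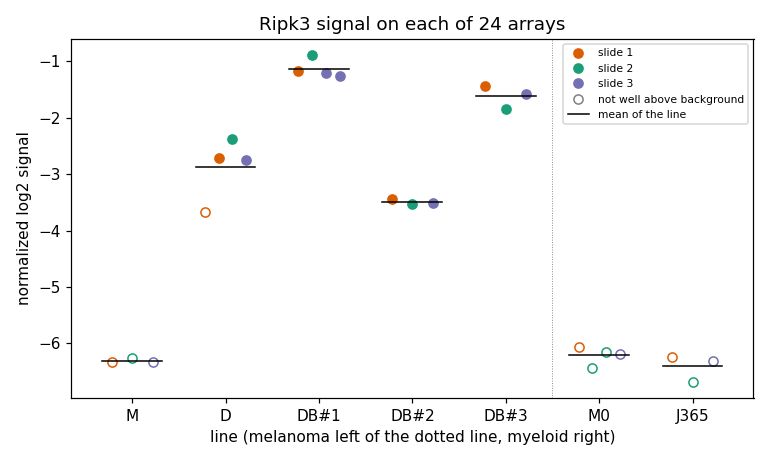
Normalized log2 signal of Ripk3 (y axis) on each array of the 7 lines (x axis), coloured by slide; open points were not well above background and the horizontal lines are line means. The 13 read arrays are all of derived melanoma lines, with DB#1 highest at -1.13 on average and M at -6.31.

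The order of the line means was DB#1 at -1.13 ± 0.16 (SD, n = 4), DB#3 at -1.62 ± 0.20 (n = 3), D at -2.88 ± 0.55 (n = 4), DB#2 at -3.49 ± 0.053 (n = 3) and M at -6.31 ± 0.038 (n = 3). DB#1 and DB#3 did not overlap, nor did DB#3 and D, whereas the arrays of D and DB#2 did. The levels of Ripk3 were among the values by which these genes were chosen, so its differences are given as a description without p-values. Against M they were 3.43 ± 0.22 (SE) in D, 5.18 ± 0.21 in DB#1, 2.82 ± 0.22 in DB#2 and 4.69 ± 0.22 in DB#3, and all 4 share the M arrays. Since M was not read, only an approximate lower bound of the fold is known, taken from the lowest signal of any probe read on each M array. By it Ripk3 was at least 8.96-fold higher in DB#1, 6.36-fold in DB#3, 2.66-fold in D (read on 3 of 4 arrays) and 1.74-fold in DB#2. The limit of the Ripk3 probe itself may be higher, as it was not well above background at -3.67 on D replicate 1. Set against D, DB#1 was higher by 1.75 ± 0.19 (SE) and DB#3 by 1.26 ± 0.21, and DB#2 stood at -0.61 ± 0.21. Nothing is read from calls of Ripk3 in the fit over all genes, since its values chose the genes. There the call of DB#1 against D ended with the compared arrays alone. That of DB#3 against D ended under 6 of the 35 alternatives, namely without scaling, with the percentile over detected probes, with the compared arrays alone, with the replicate block, without slide 1 and without DB#3 replicate 5.

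The differences from M held on each slide, at 5.10 to 5.37 in DB#1, 4.43 to 4.89 in DB#3, 3.14 to 3.89 in D and 2.73 to 2.90 in DB#2. The 5 melanoma line means of Ripk3 spanned 5.18, a value that rests on M arrays that were not read. Those of the other 6 genes spanned 0.28 to 1.03, and the median of 21455 genes was 0.43. With normexp background correction, which compresses low signals, the differences from M were 0.75 in D, 1.81 in DB#1, 0.43 in DB#2 and 1.44 in DB#3, all in the same direction.

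The genes beside Ripk3 on chromosome 14, picked by position after its values had been seen, showed no difference of its size. The 5 genes on either side were Nop9, Cideb, Ltb4r2, Ltb4r1 and Adcy4 before it and Nfatc4, Nynrin, Cbln3, Khnyn and Sdr39u1 after it in the order of the RefSeq table. In no derived line did any of the 5 that were read widely enough to be tested pass the test against M, with 0.242 as the lowest limma adjusted p (Ltb4r2 in D, -0.52 ± 0.20 (SE)). Ltb4r1, Adcy4, Nynrin, Cbln3 and Sdr39u1 could not be tested. In DB#1, where Ripk3 was highest, their differences ran from -0.19 ± 0.20 (SE) for Ltb4r2 to 0.21 ± 0.71 for Ltb4r1. The widest ones in D were 1.34 ± 0.82 for Adcy4 and 1.34 ± 0.81 for Nynrin, neither of them read widely enough to be tested. The D means include replicate 3, the array with 89.9% of probes read, and its part in these values was not tested. Of the immediate neighbours, Nfatc4 had line means between -2.20 and -2.03 in the 5 melanoma lines and Adcy4 of -6.72 to -5.08.

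**Figure D2:**
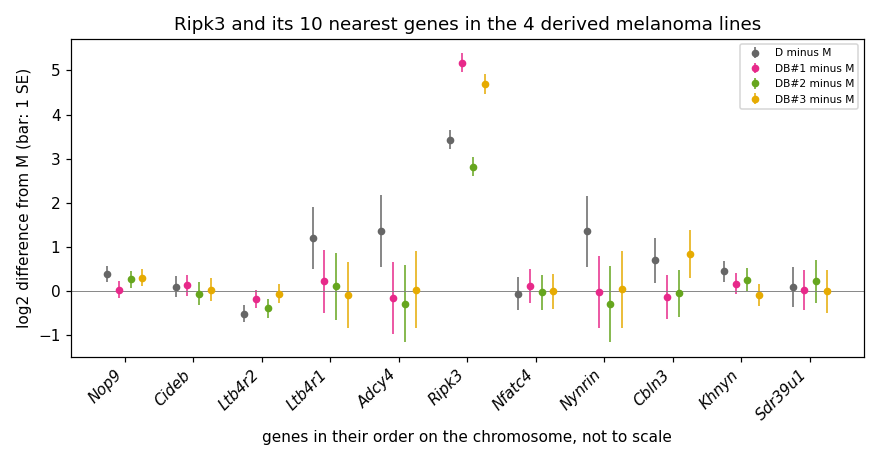
Log2 difference from M (y axis, bars 1 SE) of Ripk3 and its 10 nearest genes on chromosome 14, in their order (x axis, not to scale), for the 4 derived melanoma lines. Ripk3 stands at 2.82 to 5.18 and the neighbours mostly near 0, with wide errors where they were not read.

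Genes whose signal followed that of Ripk3 most closely were named by Pearson's r across arrays, which share slides and lines and so carry no p-value. Over all 24 arrays and 14312 genes these were Cgnl1 (r = 0.99), Podxl2 (0.97), Lifr (0.96), Fkbp10 (0.96) and Pdgfrb (0.96). Like Ripk3, all of these but Fkbp10 were unread in M, M0 and J365, so their r partly contrasts unread arrays with read ones. Cgnl1, a tight junction protein, was likewise not read in M, M0 or J365 and had means of -2.05 in D, -1.27 in DB#1, -3.43 in DB#2 and -1.06 in DB#3. Pdgfrb, a receptor for platelet-derived growth factor, was not read in M, M0 or J365 either and stood between -2.95 and -2.10 in the 4 derived lines. Within the 17 melanoma arrays the closest of 13231 genes were Cgnl1 (0.97), Slc2a4, Crmp1, D17H6S56E-5 and Rcn3 (0.96 to 0.97). None of the other necroptosis genes was among them. Their r with Ripk3 over the melanoma arrays was -0.71 for Mlkl, -0.50 for Cflar and between -0.19 and 0.05 for Ripk1, Casp8, Fadd and Zbp1.

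Ripk1, the kinase and scaffold below the tumour necrosis factor receptor, was read on all 24 arrays. On the melanoma arrays it ran from 0.26 through a median of 0.85 to 1.39, and on the myeloid arrays from -0.01 through 0.64 to 1.16. Its lowest melanoma line was DB#2, with 0.26, 0.70 and 0.33, below the 3 M arrays at 1.01, 0.85 and 1.12, a difference of -0.56 ± 0.22 (SE). The second Ripk1 probe gave 0.01 for that difference, so the 2 probes did not show the same. J365 was above M0 without overlap, at 0.83, 0.84 and 1.16 against -0.01, 0.64, 0.21 and 0.04, a difference of 0.73 ± 0.21, where the second probe gave 0.34.

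Mlkl, the pseudokinase that carries out the final step, was also read on every array. In M it was 2.41, 2.31 and 2.40. The DB#1 arrays had 2.01, 1.91, 2.14 and 1.94, and those of DB#3 had 2.14, 2.14 and 2.21. Both derived lines lay below M without overlap, with differences of -0.37 ± 0.13 (SE) in DB#1 and -0.21 ± 0.14 in DB#3. D (1.87 to 2.37) and DB#2 (2.09 to 2.45) overlapped M. The myeloid arrays ran from 2.28 to 2.78. Set beside Ripk3, the line means of Mlkl spanned 0.37 across the melanoma lines.

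**Figure D3:**
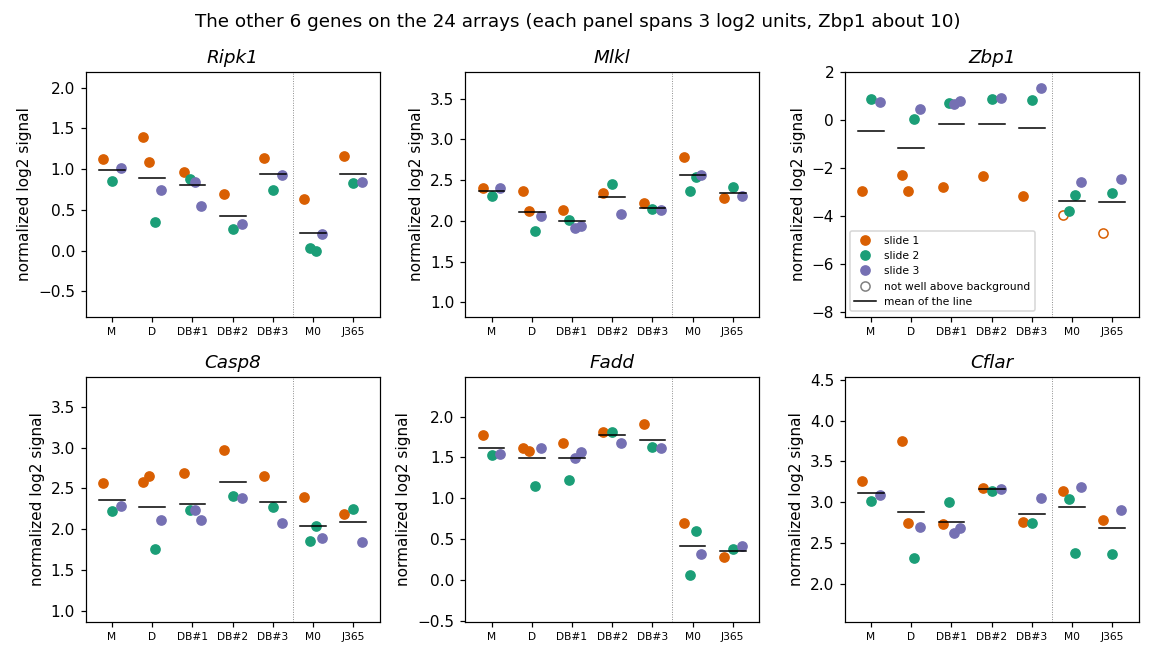
Normalized log2 signal (y axes) of Ripk1, Mlkl, Zbp1, Casp8, Fadd and Cflar on each array of the 7 lines (x axes), coloured by slide; open points were not well above background and horizontal lines are line means. Zbp1 on slide 1 lies 2.86 to 4.26 below the other slides in every melanoma line, and Fadd is higher in melanoma (1.15 to 1.91) than in myeloid lines (0.06 to 0.70).

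Zbp1, the sensor of Z-form nucleic acids that can engage Ripk3 without Ripk1, differed between slides by more than the melanoma lines differed within a slide. On slide 1 the melanoma arrays were at -2.98 (M), -2.29 and -2.95 (D), -2.82 (DB#1), -2.33 (DB#2) and -3.19 (DB#3). On slides 2 and 3 they ran from 0.03 to 1.33. Every line showed the gap, with a mean of -3.54 for slide 1 minus the others, and 36 of 21455 genes (0.168%) had a lower value. In the myeloid lines, whose arrays on slides 2 and 3 lay well below those of melanoma, the gap was -1.35. Zbp1 was read on 0 of the 2 myeloid arrays of slide 1, so this gap rests partly on unread values. Between lines of the same slide the differences from M were -0.85 to 0.66. The pooled difference from M ran from -0.73 ± 1.22 (SE) in D to 0.29 ± 1.22 in DB#1, and leaving out M replicate 3, the M array of slide 1, lowered it by the same amount in all 4 lines, to -0.97 in DB#1, -0.99 in DB#2 and -1.16 in DB#3 and further below M in D. A second Zbp1 probe, for transcript NM_021394, was read on 1 of 24 arrays, D replicate 3, at -1.19, so it gave no reading of the slide gap. Zbp1 is induced by interferon. Of 12 other interferon-induced genes, picked after the Zbp1 values had been seen, the 11 found on the array lay between -0.01 and 0.51 on slide 1 relative to the others, and Stat2 and Irf9 at 0.42 and 0.34. The part of the slide in the other Zbp1 values was not tested.

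**Figure D4:**
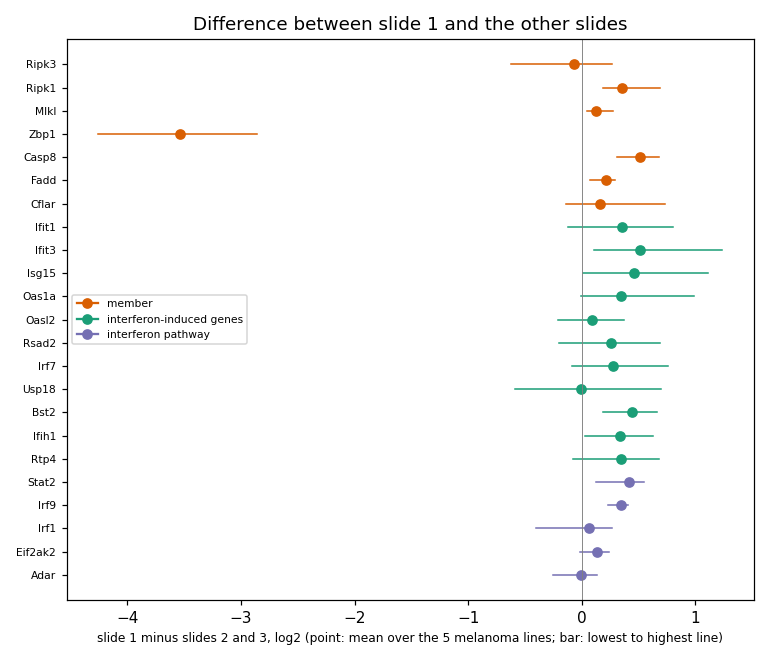
Slide 1 minus slides 2 and 3 (x axis, log2; point, mean over the 5 melanoma lines; bar, lowest to highest line) for the 7 members, 11 interferon-induced genes and 5 genes of the interferon pathway (y axis). Zbp1 is at -3.54 and all others between -0.07 and 0.51.

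Casp8, the protease that restrains necroptosis, was read on all arrays and ran from 1.75 to 2.97 in melanoma and from 1.84 to 2.39 in myeloid lines. In melanoma its slide 1 arrays, at 2.57 to 2.97, all lay above those of slides 2 and 3, with a mean gap of 0.51. Its differences from M were -0.08 ± 0.22 (SE) in D, -0.05 ± 0.22 in DB#1, 0.22 ± 0.24 in DB#2 and -0.03 ± 0.24 in DB#3, and each derived line overlapped M. Fadd, the adaptor that recruits Casp8, differed from M by -0.13 to 0.15 in the derived lines, again with overlap. Between the cell types it differed more, at 1.54, 1.52 and 1.78 in M and 0.60, 0.70, 0.31 and 0.06 in M0, by 1.20 ± 0.16. All 17 melanoma arrays lay above all 7 myeloid arrays. Cflar, the inactive relative of Casp8, had 4 probes. By the brightest, M was at 3.09, 3.01 and 3.26, and DB#1, at 3.00, 2.62, 2.73 and 2.68, lay just below it without overlap (-0.36 ± 0.25), while the probe for transcript NM_009805 gave 0.03. DB#2 was 0.04 ± 0.27 from M by the brightest probe, but by the probe for NM_009805 it was 0.64 higher, at 1.77 to 1.98 against 1.16 to 1.33 in M without overlap, so the probes of this gene differed. D replicate 1, at 3.75, was the highest Cflar array. Casp8 and Cflar lie side by side on chromosome 1, and their r with Ripk3 is given above.

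Counted over the members, and with nothing read from the counts since these values chose them, the following passed an adjusted p of 0.05 in the limma fit over all genes. In D against M none of the 6 members tested did (0 of 6; 2.97% of all 20145 genes tested passed). Ripk3 could not enter there, as D replicate 1 was not well above background, and it was called under the 4 alternatives that let it in. In DB#1, DB#2 and DB#3 against M 1 of 7 did, Ripk3 in each, where 3.69%, 3.44% and 2.76% of all genes passed. In DB#2 the Ripk3 call ended with normexp, and Ripk1 was also called with slide as a block and with the percentile over detected probes. Mlkl was also called in DB#1 with that percentile and with quantile normalization. J365 against M0 gave 0 of 5 (1.47%), but Ripk1 was called there under 8 of the 35 alternatives, slide as a block and each other scaling among them. M against M0, the parental melanoma line against the myeloid line M0, gave 3 of 6, Ripk1, Zbp1 and Fadd, all higher in M, where 58.5% of all genes passed. Of these, the Zbp1 difference of 2.92 ± 1.23 (SE) was 0.96 on slide 1, where M0 was not read, and 4.35 and 3.34 on slides 2 and 3. Its call ended under 20 of the 35 alternatives, 15 of them with 1 array left out and the others without scaling, with the percentile over detected probes, without the filter, with the replicate block and without D replicates 1 and 3. Ripk3 also passed in DB#1 and DB#3 against D (1 of 7 each; 0.475% and 0.369% of all genes), and no member did in DB#2 against D (0 of 7; 6.34%). Members whose arrays did not overlap numbered 3 in DB#1 (19.9% of all genes), 2 in DB#2 (21.5%) and 2 in DB#3 (21%) against M, 1 in J365 (8.49%) and 2 in M (57.8%) against M0 and, of those tested, 0 in D against M (8.43%). Over the 7 members the median difference from M was -0.13 in D, -0.13 in DB#1, 0.15 in DB#2 and -0.03 in DB#3, against -0.01 to 0.04 over all genes tested.

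The wider pathway was taken as 88 genes in 8 roles, of which 87 were found on the array. Among the genes tested, D against M had 1 higher and 4 lower of 80 (6.25% called), DB#1 2 and 2 of 80 (5%), DB#2 4 and 0 of 81 (4.94%) and DB#3 4 and 3 of 80 (8.75%). Over all genes tested 2.97%, 3.69%, 3.44% and 2.76% were called in these comparisons. With slide as a block the pathway genes called numbered 10, 8, 8 and 8. The median difference over the list was -0.03, 0.00, 0.07 and 0.02, and over all genes tested -0.01, 0.04, 0.02 and 0.03. No gene passed in these 4 comparisons among the ubiquitin ligases, deubiquitinases and kinases that restrain Ripk1, the death receptors and their ligands, the membrane repair proteins that limit Mlkl, the sensors and adaptors upstream of the RIP kinases, or the DNA methylation group, which includes Dnmt1 and Uhrf1. The calls fell in 3 roles.

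Of 13 interferon signalling genes tested, which control Zbp1 and Mlkl, 3 were called lower than in M in D, 2 in DB#1 and 2 in DB#3, and 1 was called higher in DB#2. Over all genes tested, 320 of 20145, 341 of 20708 and 237 of 20581 were called lower in D, DB#1 and DB#3. In DB#2 451 of 20951 were called higher. The other interferon signalling genes did not pass, and in D some lay near 0, such as Jak1 at 0.02 and Irf1 at -0.02. Irf9, the DNA-binding part of the interferon-stimulated factor ISGF3, was 1.03 ± 0.25 (SD, n = 3) in M and 2.29 ± 0.32 (n = 3) in DB#2, a rise of 1.26 ± 0.19 (SE; limma adjusted p 0.00024), and it kept its call under each of the 35 alternatives. It fell by 0.77 in D (adjusted p 0.0184) and by 0.90 in DB#3 (adjusted p 0.0084). In D the call ended without M replicate 2 (-0.81) or 3 (-0.63), and in DB#3 without M replicate 3 or DB#3 replicate 3 (both -0.76). Stat2, its partner, fell by 1.02 in D (0.0136), by 0.85 in DB#1 (0.0409) and by 1.01 in DB#3 (0.0224). Its calls ended without M replicate 2 or 3 in all 3 lines, in D with values of -1.02 and -0.83, in DB#3 also without DB#3 replicates 3 or 4 (-1.06 to -0.80), and in DB#1 without any of 12 arrays (-0.90 to -0.66). Ifngr1, a chain of the interferon gamma receptor, fell by 0.80 in D (0.00648; not called without M replicate 3, -0.72) and by 0.64 in DB#1 (0.0303; not called without any of 6 arrays of the 2 lines, -0.69 to -0.55). All 3 calls in D also ended with the compared arrays alone, without slide 1 and without D replicates 1 and 3, and those of Irf9 and Stat2 in DB#3 with the compared arrays alone. Without scaling the calls of Irf9 and Ifngr1 in D and of Stat2 and Ifngr1 in DB#1 ended too. Leaving out slide 1 or the filter ended those of Stat2 in DB#1 and DB#3 and of Ifngr1 in DB#1. The Irf9 call in D ended without the filter, that of Stat2 in DB#1 with the compared arrays alone and that of Ifngr1 in DB#1 with normexp.

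Among effectors of apoptosis and pyroptosis, all calls were rises: 1, 1, 2 and 3 of 13 or 14 tested in D, DB#1, DB#2 and DB#3. Over all genes tested, 278 of 20145, 424 of 20708, 451 of 20951 and 332 of 20581 were called higher in these lines. Casp1, the inflammatory caspase, was read on 1 of 3 M arrays, at -4.18 ± 0.61 (SD, n = 3), and was -2.23 ± 0.76 (n = 4) in D and -1.66 ± 0.96 (n = 3) in DB#3, rises of 1.95 ± 0.51 (SE; limma adjusted p 0.0404) and 2.51 ± 0.55 (0.0096). The D call ended without any of 13 arrays (1.63 to 2.01) and that in DB#3 without M replicate 3 or DB#3 replicate 3 (1.96 to 2.23). In both lines it also ended with quantile normalization, normexp, the compared arrays alone or slide 1 left out. Gsdmd, the pore protein that inflammatory caspases cut, rose by 1.18 ± 0.30 in DB#1 (0.0257) and by 1.31 ± 0.32 in DB#3 (0.024). Replicate numbers were taken to pair DB#1 with M, though this cannot be told apart from a shared slide. The replicate block held the numbered arrays of every line, not this pair alone. With it Gsdmd in DB#1 was 1.16 (limma adjusted p 0.0618). Its call in DB#1 also ended without M replicate 1 or 2 or DB#1 replicate 2, 3 or 4 (1.06 to 1.21), and that in DB#3 without M replicate 1 or 2 or DB#3 replicate 4 or 5 (1.12 to 1.27). In both lines it ended with the mean over probes, the percentile over detected probes or no filter as well. Outside the rule for named genes, and named after their values were seen, further calls were Apaf1 (0.46 in DB#2) and Bid (0.71 in DB#3), both of mitochondrial apoptosis.

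In the group of chaperones, phosphatases and modifiers of Ripk3 and Mlkl, Tyro3, a receptor kinase of the TAM family that can phosphorylate Mlkl, rose in all 3 DB lines. It was 2.95 ± 0.19 (SD, n = 3) in M, 3.99 ± 0.067 (n = 4) in DB#1, 3.55 ± 0.19 (n = 3) in DB#2 and 3.97 ± 0.044 (n = 3) in DB#3. The rises were 1.04 ± 0.15 (SE; limma adjusted p 0.000113), 0.60 ± 0.16 (0.0416) and 1.02 ± 0.16 (0.000397), and 0.45 ± 0.15 in D did not pass (0.144). In DB#1 and DB#3 Tyro3 was called under all 35 alternatives, while in DB#2 its call ended without any of 13 arrays (0.50 to 0.62), with the compared arrays alone, without slide 1, without the filter and with the replicate block. Ippk, a kinase of the inositol phosphate route that activates Mlkl, fell by 1.46 ± 0.23 in DB#3 (0.00043), from 2.26 ± 0.10 to 0.80 ± 0.022 (SD, n = 3), again called under all 35 alternatives. Ipmk, an earlier kinase of that route and also outside the rule, fell by 0.62 in D. In the other lines Ippk was -0.49 ± 0.22 (D), -0.17 ± 0.22 (DB#1) and 0.48 ± 0.23 (DB#2) from M.

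**Figure D5:**
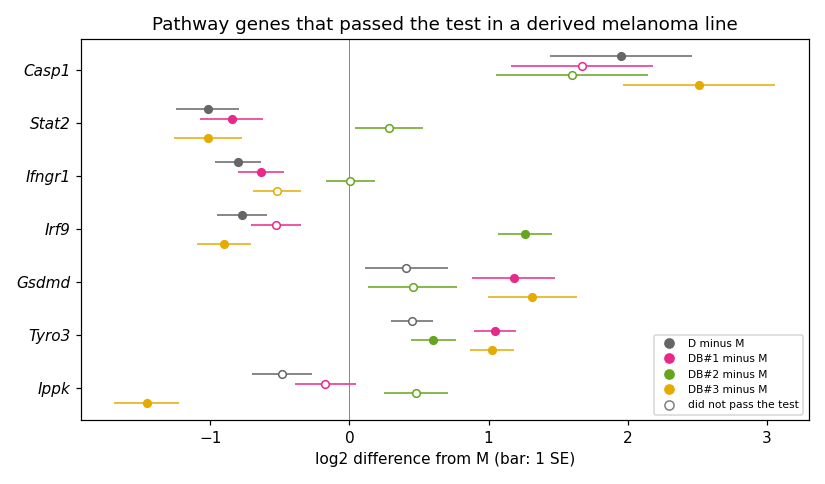
Log2 difference from M (x axis, bars 1 SE) of the 7 pathway genes named for a call in a derived melanoma line (y axis); filled points passed the test and open points did not. Irf9 lies at 1.26 in DB#2 and at -0.90 in DB#3, and Tyro3 above 0 in every line.

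All 23 named calls in comparisons of lines kept their direction on each of the 3 slides, and none ended with slide as a block (0 of 26, the differences between models included). The genes were named for large differences on these same arrays, so the shared direction is no separate support. Slide as a block also raised the calls over all genes, such as from 598 to 1083 in D against M.

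In the myeloid pair 1 pathway gene of 82 passed (1.22%; 1.47% of all genes; 13 at an unadjusted p under 0.05, and 2 with slide as a block). Tlr4, the receptor for bacterial lipopolysaccharide, which signals to the RIP kinases through Ticam1, rose from -1.79 ± 0.37 (SD, n = 4) in M0 to -0.62 ± 0.37 (n = 3) in J365, by 1.17 ± 0.22 (SE; limma adjusted p 0.00362), a call that ended with the compared arrays alone. Ripk3 was not read in this pair, and Zbp1 was read on 3 of 4 M0 and 2 of 3 J365 arrays. The difference between models, D minus M less J365 minus M0, was past the threshold for 3 of 83 pathway genes (3.61%; 2.08% of all genes), all lower in the melanoma pair. These were Casp4, Tlr4 and Irf9, with differences of -2.07, -1.57 and -1.17. Leaving out any of 21 arrays ended the call of Casp4 (-2.19 to -1.83), and leaving out M replicate 3 or J365 replicate 3 that of Irf9 (-1.06 to -1.03). The Casp4 call also ended without scaling, without the filter, with the compared arrays alone and with the replicate block. That of Irf9 also ended without the filter, with the replicate block, without slide 1 and without D replicates 1 and 3. Tlr4 was not called there without scaling.

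The parental melanoma line differed from M0 at 47 of 83 pathway genes (56.6%; 58.5% of all genes), 16 higher and 31 lower in M. Over all 22426 genes tested, 6213 were called higher and 6899 lower in M. Of 13 apoptosis and pyroptosis effectors tested, 10 were called lower and 1 higher. Casp1 differed by -5.83 ± 0.51 and Gsdmd by -5.54 ± 0.30 (SE; limma adjusted p 3.98e-09 and 1.31e-12). Fas, a death receptor, was not read in any melanoma line. By the same approximate bound as for Ripk3 it was at least 24.9-fold lower in M (adjusted p 8.69e-14). Tlr3, the receptor for double-stranded RNA, was not read in M0 or J365. By that bound it was at least 4.13-fold higher in M (adjusted p 2.41e-11), where it stood at -2.05 ± 0.66 (SD, n = 3). Tlr4 was higher by 2.74 ± 0.22 (6.79e-10) and Sdcbp, which takes part in the shedding of damaged membrane, by 1.93 ± 0.19 (1.57e-08). Among genes that restrain Ripk1, 4 were higher and 6 lower of 20 tested. The 6 genes named kept their calls under all 35 alternatives.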

How the data were processed

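Expression in 7 mouse cell lines was measured on 24 one-colour Agilent arrays. The authors labelled RNA with cyanine 3 and extracted signals with Agilent Feature Extraction 10.7.3.1. The deposited values are processed signal intensities, and the deposited series table held the same values for 1511424 of 1511424 spots compared, so any later scaling by the authors is not in these files. Control spots and 117 probes with an outlier mark were left out, spots of a probe were averaged (56488 probes), and log2 intensity minus the 75th percentile of the array was used. No non-control spot was saturated, and no array pair was identical. The number of arrays limits the precision.

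Probes were named through RefSeq transcripts (32917 probes), and the brightest probe stood for a gene. Lines were compared with limma 3.58.1 (R 4.3.3) in 1 model with a term per line and 17 residual degrees of freedom. A gene was tested if well above background on every array of at least 1 line compared, with Benjamini-Hochberg adjustment and a threshold of 0.05. The test was checked on simulated data. The members and gene lists were chosen with earlier results of these data known. Named genes were the members, the 3 largest rises and 3 largest falls among called pathway genes in each comparison, and the 5 genes most like Ripk3. Some results within this rule are not reported here. Alternatives covered scaling, normexp (offset 50, on the median signals, since no mean signal was in the files used), the filter, the arrays fitted, slide and replicate blocks and each array left out. Leaving out slide 1, or D replicates 1 and 3, was added after seeing the data.

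Replicate numbers are shared between lines, and the pairing was checked by correlating deviations from the line means over 15768 genes. Of the lines compared that share 3 or more numbers, DB#1 and M alone had every correlation over 0.1 (0.655, 0.567 and 0.911). Their numbers were taken as pairing on this ground. Both replicate 3 arrays, the last pair, lay on slide 1. In DB#2 and M, at 0.852, -0.555 and -0.565, the negative pairs each set a slide 1 array against one of another slide. The correlations therefore cannot tell pairing by number from a shared slide. DB#3 shared 1 number with M and 2 with D (0.212 and 0.709), and J365 shared 2 with M0. The unnumbered array of M0 and that of J365 were called replicate 4 and given no pair.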

Additional observations from a re-analysis of the deposited data

Results flagged for a closer look

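Zbp1 on DB#1 replicate 3 stood apart at -2.82, where the other 3 arrays of the line were at 0.65 to 0.80, a gap of 0.96 of the range. That array was the DB#1 array of slide 1. Fadd on D replicate 3 stood apart at 1.15, against 1.58 to 1.62 on the other 3 D arrays, a gap of 0.92 of the range, and this was the array with 89.9% of probes read. Among 57 groups of 4 arrays looked at, these 2 were marked, and chance marks about 1 in 20.

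Irf9, Tlr4 and Casp4 differed in their response between the melanoma pair and the myeloid pair by a limma test of the difference itself in the main fit. The call ended under 25 of the 35 alternatives for Casp4, 6 for Irf9 and 1 for Tlr4. For Irf9 the value was -1.17 (adjusted p 0.0141), from -0.77 in D against M and 0.40 in J365 against M0. For Tlr4 it was -1.57 (adjusted p 0.00504), from -0.40 and 1.17. For Casp4, an inflammatory caspase, it was -2.07 (adjusted p 0.0431), from -0.93 and 1.15.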

How the results depend on the processing

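No called result changed direction under the 35 alternatives. Members that were not called did: over the alternatives and the single slides, 17 of the 28 member differences from M took both signs, such as Ripk1 in D (-0.10, and 0.08 without scaling) and Zbp1 in DB#1 (0.29, and -0.97 without M replicate 3), while Ripk3 stayed above M throughout. Ripk3 against M moved with normexp to 0.75 (D), 1.81 (DB#1), 0.43 (DB#2) and 1.44 (DB#3). With quantile normalization it was 2.80 in D and 2.77 in DB#2, and in DB#2 without scaling 3.05 and with the percentile over detected probes 2.76. Within slide 2 it was 3.89 (D), 5.37 (DB#1), 2.73 (DB#2) and 4.43 (DB#3), and within slide 1 it was 2.90 (DB#2) and 4.89 (DB#3). With 1 array left out it ran from 3.26 to 3.69 (D), 5.10 to 5.22 (DB#1), 2.79 to 2.84 (DB#2) and 4.60 to 4.80 (DB#3).

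The number of pathway genes called, in D, DB#1, DB#2 and DB#3 against M and J365 against M0, was 5, 4, 4, 7 and 1. With quantile normalization it was 9 (D), 10 (DB#1) and 3 (J365). With the percentile over detected probes it was 9, 8 and 2 in the same lines. Without scaling it was 3 (D) and 8 (DB#2), and with normexp 7 (DB#2) and 3 (J365). Without the filter on dim probes it was 2, 1, 1 and 4 in D and the 3 DB lines. With the compared arrays alone it was 0 (D), 1 (DB#2), 2 (DB#3) and 0 (J365). With slide as a block it was 10, 8 and 8 in D, DB#1 and DB#2 and 2 in J365. Without slide 1 it was 0 (D), 2 (DB#1), 4 (DB#3) and 2 (J365). Without D replicates 1 and 3 it was 9 (DB#1), 7 (DB#2) and 3 (J365). Of the pathway genes that differed between models, 3 in all, 1 was called without scaling, 1 without the filter and 5 with slide as a block. With 1 array left out the numbers ran from 0 to 8 (D), 1 to 7 (DB#1), 1 to 5 (DB#2), 3 to 9 (DB#3), 1 to 3 (J365), 43 to 48 (M against M0) and 1 to 3 (between models). In D the 0 came without M replicate 3 and the 8 without D replicate 1.

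Over all genes, the calls numbered 598 in D (278 higher, 320 lower), 765 in DB#1, 720 in DB#2 (451 higher, 269 lower), 569 in DB#3 and 303 in J365 (149 higher, 154 lower). With slide as a block they were 1083 (D), 1163 (DB#1), 1113 (DB#2) and 499 (J365). Without D replicates 1 and 3 they were 1201 (DB#1), 1154 (DB#2), 866 (DB#3) and 639 (J365). The compared arrays alone gave 135 in D, leaving out slide 1 gave 357 in DB#3, and quantile normalization gave 539 in J365. Without scaling, which moved the median of all genes to 0.17 (D), 0.25 (DB#2) and 0.17 (J365), the higher and lower calls were 407 and 140 in D, 1122 and 133 in DB#2 (1255 in all) and 258 and 113 in J365. With the percentile over detected probes they were 521 and 474 in DB#2. With 1 array left out the calls ran from 337 to 934 (D), 518 to 990 (DB#1), 452 to 952 (DB#2), 403 to 713 (DB#3), 221 to 516 (J365) and 12083 to 13750 (M against M0). The cause of these shifts was not tested.

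With the replicate block, Ripk3 against M was 3.44 (D), 5.19 (DB#1), 2.82 (DB#2) and 4.60 (DB#3). The pathway genes called under the block numbered 4, 3, 2 and 5 in these lines and 1 in J365, 49 in M against M0 and 1 between models, and the block ended 6 of the 26 named calls. Over all genes the block gave 642 (D), 805 (DB#1), 761 (DB#2), 398 (DB#3), 203 (J365) and 13142 (M against M0) calls. The other lines compared were taken to share only numbers, although the block covered the numbered arrays of every line. Same-numbered arrays correlated at 0.095, -0.43 and -0.486 in D and M. Each of these pairs set a slide 1 array against one of another slide. The part of the slide in these values was not tested.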
